A study of Mus musculus with 40 samples.

Results

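The regions described here carried a deposited H3K27ac peak in every genotype with the Flt3-ITD allele and in no genotype without it. They were found by merging the peaks of the 6 H3K27ac lists (peaks sharing at least 1 bp, chromosomes 1 to 19 and X) and keeping the merged regions with a peak in all 3 lists with Flt3-ITD and no peak in the 3 lists without it. This left 502 of 71511 merged regions, or 0.702%. The mirrored choice, a peak in all 3 lists without Flt3-ITD and in none with it, held 72 regions, or 0.101%. Presence and absence of these peaks chose the 502 regions, that is, they were chosen by H3K27ac, so their H3K27ac values are a description and support no difference between genotypes.

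The cells were sorted haematopoietic stem and progenitor cells of mice aged 21 days, and the assay was ChIPmentation, in which immunoprecipitated chromatin is cut and tagged on the beads by the transposase Tn5. The genotypes with the allele are labelled Flt3-ITD (counterpart wildtype), Flt3-ITD/NUP98-HOXD13 (counterpart NUP98-HOXD13) and Flt3-ITD/Runx1-het (counterpart Runx1-het). The source name of the Runx1-het samples is Runxf_Vav, and no label spells out its alleles, the driver of a Cre, the promoter of the NUP98-HOXD13 transgene or how many copies of Flt3-ITD the mice carried. Of 40 samples, 20 were for H3K27ac and 19 for H3K4me1, in groups of 3 or 4, and 1 input was not analysed here. Each genotype and mark has 1 list, pooled over its samples, so no value per sample, no spread between replicates and no p-value can be given for anything below. The read depth behind a list is unknown.

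FLT3 is a receptor tyrosine kinase of early haematopoietic progenitors. An internal tandem duplication (ITD) in its juxtamembrane part leaves the kinase active without its ligand and engages STAT5, which normal FLT3 activates weakly, besides the MAPK pathway. Acetylation of histone H3 at lysine 27 (H3K27ac) marks promoters and enhancers in use, and monomethylation at lysine 4 (H3K4me1) marks enhancers, including ones that are not acetylated.

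The 6 H3K27ac lists held 31973 to 43363 peaks. Their lowest deposited −log10 q ran from 0.258 in NUP98-HOXD13 to 0.470 in Runx1-het, so a peak here can be a very weak call. The lists with Flt3-ITD covered more of the genome (39.9 to 44.6 Mb) than those without (28.0 to 35.9 Mb), and the median fold enrichment at regions found in all 6 lists was also higher with it (8.51 to 9.13) than without (6.98 to 7.96). Fold enrichment here is the peak caller's signal over control at the summit, as the authors deposited it, and 3 values given together follow the order of the genotypes above, the single mutant, the double mutant with NUP98-HOXD13 and the double mutant with Runx1-het. The part of these list differences in the 502 regions was not tested. Promoter peaks of the stem and progenitor markers Kit, Cd34, Flt3, Runx1, Tal1, Lmo2 and Myb stood in all 6 lists, Gata2 had one in 3 lists, and genes not expressed in blood had none. Markers of maturing granulocytes had a promoter peak for 5 to 7 of 18 genes with Flt3-ITD. The counts were 2, 6 and 3 in the wildtype, NUP98-HOXD13 and Runx1-het lists. None of the other lineages had a higher count with the allele in all 3 pairs, though erythroid and B lymphoid counts were never lower. Among monocyte markers the count was 7, 9 and 9 with the allele, and 8, 6 and 7 without it. Dendritic markers gave 6, 6 and 7 against 4, 8 and 6, and megakaryocyte ones 5, 6 and 7 against 7, 6 and 2. Mast cell markers gave 3, 5 and 1 against 3, 2 and 3, and erythroid ones 5, 6 and 7 against 4, 6 and 5. B lymphoid markers gave 7, 8 and 6 against 7, 6 and 6. Those of T and NK cells gave 2, 3 and 3 against 3, 3 and 2. No share over all genes is set beside these counts, and the part of cell composition in the regions was not tested.

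Of the 502 regions, 66 lay at promoters, within 1 kb of the start site of a protein-coding gene. RefSeq promoter windows (GRCm38.p6, 250 bases before to 50 after a start site) overlapped 44 of the regions, with 51 windows. The letters of 6 are shown up to the start site, 5′ to 3′ on the gene's strand, with motif letters in capitals. The first 3 belong to 3 of the 4 strongest promoter members and the other 3 hold the letters TTCNNNGAA, the core that STAT proteins recognise, inside a member. They were picked after their values were seen. Capitals mark TTGCNNAA (a C/EBP core) in Crisp1, CCGGAAG (an ETS core) in 2 places in Gcn1, the STAT core and an ETS core read on the other strand in Emilin2, the STAT core in 5730460C07Rik, and in Gm46599 a C/EBP core on the other strand, TGANTCA (an AP-1 core) and the STAT core. Sh2b2 held none of the 9 motifs searched.
Crisp1, chr17:40319207-40319457, minus strand: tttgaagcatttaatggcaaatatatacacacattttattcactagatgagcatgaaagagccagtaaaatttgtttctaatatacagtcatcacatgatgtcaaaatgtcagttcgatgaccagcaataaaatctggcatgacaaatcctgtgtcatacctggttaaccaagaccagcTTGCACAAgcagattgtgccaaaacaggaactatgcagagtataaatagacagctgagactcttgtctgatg
Gcn1, chr5:115565013-115565263, plus strand: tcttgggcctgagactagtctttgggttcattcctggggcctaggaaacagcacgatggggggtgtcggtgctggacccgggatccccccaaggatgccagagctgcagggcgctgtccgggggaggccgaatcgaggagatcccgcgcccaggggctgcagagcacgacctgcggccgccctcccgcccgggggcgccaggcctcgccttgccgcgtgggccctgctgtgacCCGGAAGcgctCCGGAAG
Sh2b2, chr5:136244940-136245190, minus strand: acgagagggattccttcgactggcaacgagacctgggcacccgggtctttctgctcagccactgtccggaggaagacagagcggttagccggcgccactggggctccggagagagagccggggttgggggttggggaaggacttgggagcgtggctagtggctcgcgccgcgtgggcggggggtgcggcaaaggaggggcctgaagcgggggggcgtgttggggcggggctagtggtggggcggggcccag
Emilin2, chr17:71311011-71311261, minus strand: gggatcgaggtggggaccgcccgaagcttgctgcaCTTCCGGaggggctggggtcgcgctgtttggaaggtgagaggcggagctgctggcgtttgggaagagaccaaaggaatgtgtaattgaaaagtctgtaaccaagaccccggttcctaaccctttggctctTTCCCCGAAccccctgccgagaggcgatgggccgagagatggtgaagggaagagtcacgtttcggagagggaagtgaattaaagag
5730460C07Rik, chr3:153792087-153792337, minus strand: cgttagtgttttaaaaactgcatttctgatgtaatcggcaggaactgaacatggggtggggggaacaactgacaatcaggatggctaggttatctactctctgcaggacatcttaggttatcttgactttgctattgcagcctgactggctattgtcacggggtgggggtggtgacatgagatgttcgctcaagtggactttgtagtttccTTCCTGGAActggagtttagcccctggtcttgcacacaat
Gm46599, chr17:5928056-5928306, plus strand: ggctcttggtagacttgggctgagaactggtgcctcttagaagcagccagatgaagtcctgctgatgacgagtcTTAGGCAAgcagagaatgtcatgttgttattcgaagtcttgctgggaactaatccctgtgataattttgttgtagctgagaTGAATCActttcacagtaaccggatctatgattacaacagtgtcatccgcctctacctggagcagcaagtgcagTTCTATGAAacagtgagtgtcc

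The windows differed in base composition. The Crisp1 window is rich in A and T, with 38.7% G and C over its 300 bases and 2 CpG, whereas Gcn1 (71.3%, 28 CpG) and Sh2b2 (72.3%, 29 CpG) have the make-up of CpG island promoters. Over the 51 windows the median G and C content was 55.3% with 17 CpG, below the 60.7% and 21 CpG of the 11711 windows under any merged region and above the 53.0% and 7 CpG of all 32619 RefSeq windows. Of the 51 windows 29 lay wholly inside a member, and of the 11711 windows 10026 lay wholly inside a merged region. The medians are of whole windows, so they include sequence outside the members.

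Motif letters were searched on both strands in the full 300-base windows, in which motifs may overlap. The STAT core was in 4 of 51 windows (7.84%, 95% Wilson interval 3.09 to 18.5), against 8.34% of all windows and 7.08% of those under any merged region. In the window of Tmem214 the STAT letters lay outside the member, in the other 3 inside it. The ETS core CCGGAAG stood in 6 windows (11.8%), against 19.5% under any merged region and 8.92% of all, and the AP-1 core TGANTCA in 6 (11.8%), against 5.05% and 7.85%. Of these 6, Prn and Prnp share 1 window and 1 site, and the letters of Nbas lay outside the member. The ETS letters of Spg21, the GATA letters of Tmem214 and the IRF and E-box letters of Gm12248 were also outside. The IRF letters GAAANNGAA were in 5 windows (9.80%, all windows 8.53%), TTGCNNAA in 4 (7.84%, all 10.9%), the E-box CACGTG in 3 (5.88%, all 7.20%) and the GATA letters AGATAAG in 1 (1.96%, all 3.04%). Neither the RUNX letters TGTGGTT (all 5.29%) nor the control motif GTTAATNAT of HNF1 (all 0.806%) were in these windows. With 51 windows every interval was wide, and a letter match is no binding site. Regions with no such window, most of them away from promoters, were not searched, because no genome sequence was used here.

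Within each list most of the 502 regions were weaker than the median peak, with median percentiles of 33.4, 30.6 and 41.5. Their fold enrichment ranged from 2.02 to 7.48 in the single mutant (median 3.82), from 1.88 to 6.67 in the double mutant with NUP98-HOXD13 (median 3.71) and from 2.21 to 9.76 in the one with Runx1-het (median 4.05). The medians of the whole lists were 4.42, 4.57 and 4.42, and 25.5%, 14.1% and 37.3% of the regions lay above them. None was among the highest 10% of its list. A deposited −log10 q of at least 5 was met by 182, 127 and 151 of the 502, and by 31 (6.18%) in all 3 lists. The like shares over all regions of these lists were not computed, so these counts do not set the members apart.

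The lowest of a region's 3 values had a median of 3.33, with quartiles of 2.99 and 3.69. It was at least 4 in 57 regions, at least 5 in 5 and under 3 in 130. The highest of the 3 values came from Flt3-ITD/Runx1-het in 232 regions, from Flt3-ITD in 151 and from Flt3-ITD/NUP98-HOXD13 in 119. Values of different lists are the authors' own and were not put on a shared scale.

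Ordered by that lowest value, a region in an intron of Ect2l (chr10:18196222-18197700) came first, with fold enrichments of 5.93 in the single mutant, 5.48 in the double mutant with NUP98-HOXD13 and 7.80 in the one with Runx1-het. H3K4me1 peaks covered it in every list but the wildtype one. The next lay between genes, 364738 bp upstream of the nearest start site, that of Runx1 (chr16:93190887-93193118), and reached 5.42, 6.65 and 7.27 in the same order. RUNX1 is a transcription factor needed for the formation of haematopoietic stem cells, and its gene is one of those altered in this series. This region had H3K4me1 in all 6 lists, with fold enrichments of 7.83, 8.16 and 8.05 with Flt3-ITD and 4.48, 5.57 and 5.70 in wildtype, NUP98-HOXD13 and Runx1-het. These values come from separate pooled lists that were not put on a shared scale, so their order supports no difference between genotypes.

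At promoters, Crisp1, which encodes a secreted protein of the male reproductive tract, stood highest (chr17:40318998-40320096) with 6.62, 5.14 and 9.23 in the 3 lists with Flt3-ITD. Gcn1, listed as Gcn1l1 in the annotation, encodes an activator of the translation kinase GCN2. Its promoter region (chr5:115564238-115566292) had 5.07, 4.96 and 5.43, the closest agreement between lists among these promoters. The Prn and Prnp promoter (chr2:131909322-131910958), which includes the start of the prion protein gene, had 4.56, 4.45 and 5.71. Sh2b2, the gene of an adaptor that binds activated receptor kinases, had 4.51, 4.45 and 7.38 at its promoter (chr5:136244535-136245417). The fifth promoter in this order, that of Mettl17 (chr14:51884610-51885320), had 5.35, 4.35 and 6.16, and like Sh2b2 it had no H3K4me1 peak in any list.

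Among the distal regions, one within Bcl2 (chr1:106611857-106613206, intron, 99973 bp from a start site) had 7.05, 4.54 and 6.13 in the 3 lists with Flt3-ITD. BCL2 blocks apoptosis at mitochondria. Upstream of Max, the gene of the dimerisation partner of MYC, a region 102410 bp from the start site (chr12:77064611-77065644) had 5.31, 4.96 and 6.20. A region 73468 bp upstream of Kdr, which encodes a VEGF receptor (chr5:76051926-76052854), had 4.90, 5.09 and 4.95, and no H3K4me1 peak in any list. Near Pdcd4, the gene of an inhibitor of translation initiation, the values were 4.59, 5.34 and 4.90 (chr19:53869082-53871443). Gda, the guanine deaminase gene, lay 62997 bp from the region with the widest spread of the 20, with 4.73 and 4.57 in the first 2 lists and 9.76 in Flt3-ITD/Runx1-het, the highest value of all 502 regions.

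The 20 strongest comprised 10 introns, 6 intergenic regions and 4 promoters. Besides those given, they lay nearest to Tppp3, Zfp516, Guca1a, Cradd, Pkp4, Anp32e, Tmem140, Slc25a31 and Hemk1. Flt3-ITD/Runx1-het gave the highest value in 12 of the 20, Flt3-ITD/NUP98-HOXD13 in 6 and Flt3-ITD in 2. H3K4me1 peaks covered 13 to 15 of the 20 in the lists with Flt3-ITD, and 8, 13 and 7 in the wildtype, NUP98-HOXD13 and Runx1-het lists. All merged regions had 50.8, 51.7 and 49.5% with Flt3-ITD, and 39.4, 47.3 and 41.1% in those without. With 20 regions these counts do not set the strongest members apart.

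**Figure D1:**
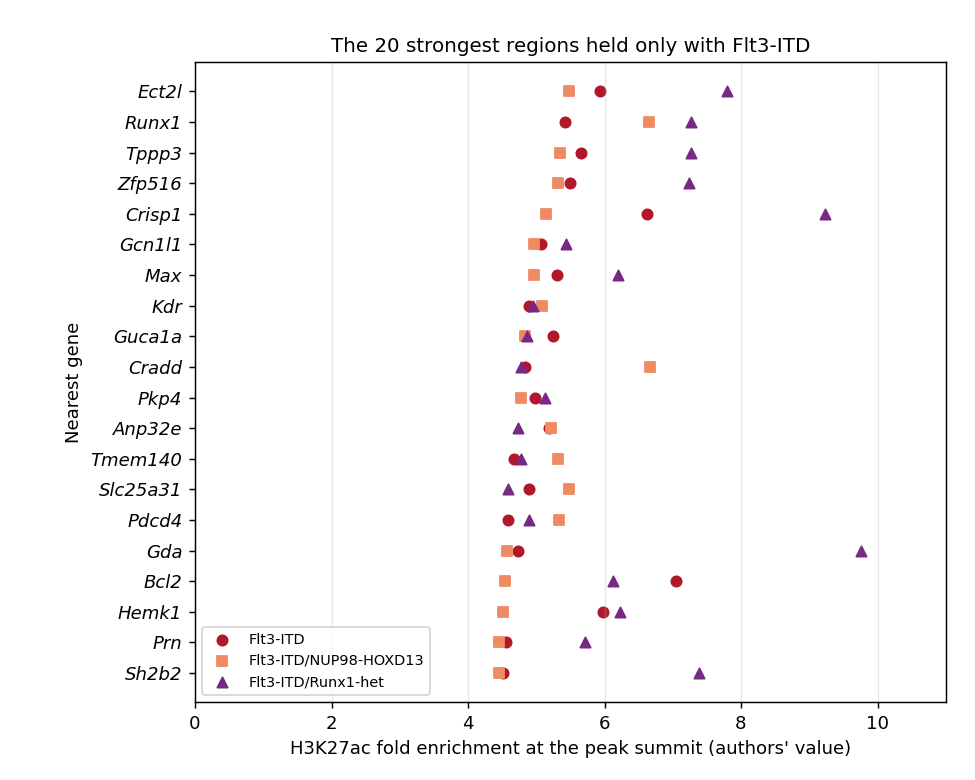
H3K27ac fold enrichment at the peak summit (horizontal axis, the authors' value) of the 20 strongest regions held only with Flt3-ITD, named by their nearest gene and ordered from the top by the lowest of the 3 values; each symbol is 1 pooled list. Values run from 4.45 to 9.76, and Flt3-ITD/Runx1-het (triangles) is highest in 12 of the 20 regions.

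The lower edge of the set held weak peaks. The weakest regions included one at the promoter of Iqgap3 (2.61, 1.88 and 3.53 in the 3 lists with Flt3-ITD) and others near Tbc1d10c, Mtch1 and Stim2, each of these with a lowest value of 1.98 or 2.02. Of 18435 regions with a peak in all 3 lists with Flt3-ITD, 502 (2.72%) had none in the other lists, 1411 (7.65%) had a peak in 1 of them, 2706 (14.7%) in 2 and 13816 (74.9%) in all 3. The 1411 shared their extra peak with NUP98-HOXD13 in 869 cases, with wildtype in 279 and with Runx1-het in 263. Among the weakest of these extra peaks, and so just outside the set, were those in the NUP98-HOXD13 list near Gm11213 (2.01), at the Ttc21b promoter (2.12) and at the Chd4 promoter (2.24).

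Socs2 lay across this edge. SOCS2 is a feedback inhibitor of cytokine receptors, and its gene is a known target of STAT5. Its promoter region (chr10:95408369-95418536) had fold enrichments of 15.4, 12 and 17.8 in the 3 lists with Flt3-ITD and no peak in wildtype or Runx1-het, but a peak of 3.75 in NUP98-HOXD13 kept it out of the 502. By its lowest value of 12 it was the strongest of the 1411 regions that missed by 1 list. A region beginning 234 bp beyond it (chr10:95418771-95420028), 1914 bp upstream of the start site, belonged to the set with 5.42, 3.92 and 5.66. H3K4me1 peaks covered that member in all lists but wildtype, with 4.71 in Flt3-ITD and between 3.72 and 4.94 in the other 4. An intronic region downstream of the start site (chr10:95394367-95400208) had a peak in all 6 lists, with 10.9, 10.6 and 15.3 in the lists with Flt3-ITD and 5.92, 3.19 and 7.30 in wildtype, NUP98-HOXD13 and Runx1-het.

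The same stretch of chromosome 10 had the most members of any. Counting members within 500 kb of each of the 502 gave 1, the region itself, in 301 cases, 2 in 147, 3 in 33, 4 in 9, 5 in 5, and 7 in 7. All 7 of the last kind lay together, from 328 to 1.91 kb from the Socs2 start site, with 6 of them between Plxnc1 and Socs2 and the Socs2 member just beyond that start site, among 95 merged regions within 500 kb of that start site (7.37%, against 0.702% over all regions). From the Plxnc1 side, the first (chr10:95086963-95087612) had 5.65, 3.34 and 4.73 in the 3 lists with Flt3-ITD, and the second (chr10:95117370-95119533) had 4.52, 3.51 and 5.77 and H3K4me1 in all 6 lists. Cradd, the gene of a death-domain adaptor of caspase 2, was nearest to 4 of the 7.
Of these, the one at chr10:95191873-95192480 reached 4.83, 6.67 and 4.77, and its neighbour at chr10:95192675-95193209 reached 3.20, 3.79 and 4.39. That neighbour had H3K4me1 in all 3 lists with Flt3-ITD (4.32, 4.33 and 5.17) and in none without, the pattern of its H3K27ac. The other 2 had 4.67, 4.33 and 5.31 (chr10:95141962-95144092) and 5.52, 3.48 and 5.07 (chr10:95290932-95291988). This grouping was noticed in the values and has no test.

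A second group, of 5 members, fell in the major histocompatibility region of chromosome 17, with 117 merged regions within 500 kb of the Psmb8 member (4.27%). Psmb8, Tap2 and H2-Eb2 encode a subunit of the immunoproteasome, part of the peptide transporter of class I antigen presentation and a class II chain. Fold enrichments in the 3 lists with Flt3-ITD were 4.73, 3.92 and 3.94 in the Psmb8 intron (chr17:34199598-34200248), 3.53, 3.13 and 5.13 at the Tap2 promoter (chr17:34203488-34204249) and 3.70, 3.46 and 3.70 in H2-Eb2 (chr17:34339532-34340143). The other 2 lay at the Zbtb22 promoter (4.39, 3.26 and 3.70) and near B3galt4 (3.28, 4.32 and 4.04). H3K4me1 was on the Psmb8 member in 5 lists, all but wildtype, on the Tap2 promoter in NUP98-HOXD13 and Flt3-ITD/Runx1-het, and on the H2-Eb2 member in all but NUP98-HOXD13.

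Neighbouring members were otherwise few, with 67 (13.3%) within 50 kb of another and 12 (2.39%) within 1 kb. Counting a gene by its nearest start site within 50 kb, 396 members (78.9%, all merged regions 72.0%) went to 373 genes, of which 18 had 2 or more members and 3 had at least 3. At Cdc42bpg 4 of 8 merged regions were members (chr19:6297444-6302663, partly inside Ehd1). These 4 fill 5220 bp with short gaps between them. Retreg1 had 4 of 50 regions, all in its introns, and Utrn 3 of 40.

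Genes of the pathways and lineages listed for these cells had few members. Over 16 lists with 258 genes, 14 of 1468 nearby merged regions were members (0.954%, all regions 0.702%). STAT5 targets had 1 of 152 (0.658%), the Socs2 region, which was also the 1 of 54 near SOCS genes. MAPK feedback genes had 1 of 179 (Dusp5, a nuclear phosphatase of ERK), interferon response genes 1 of 108 (Psmb8) and cytokine receptor genes 1 of 135 (Ifngr1, a chain of the interferon gamma receptor). Stem and multipotent progenitor genes had 4 of 388 (1.03%), namely 1 at Cdk6, 1 at Myb and 2 in Runx1. Granulocyte genes had 1 of 71 (Mpo), dendritic genes 1 of 80 (Tcf4), B lymphoid genes 1 of 62 (Cd79b) and T and NK cell genes 1 of 33 (Zap70). Ubiquitous genes had 2 of 57 (among them Ywhaz). Monocyte, erythroid, megakaryocyte and mast cell genes and genes not expressed in blood had none of 96, 52, 89, 75 and 14. Each of these counts is too small to set a list apart from the rest.

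None of the 14 was at a promoter. An intronic region of Cdk6, the gene of a cell cycle kinase of haematopoietic progenitors, had 4.39, 3.79 and 4.95 (chr5:3362251-3364538). The region 43476 bp upstream of Myb, which encodes a transcription factor of progenitors, had 3.04, 3.39 and 4.14 (chr10:21204460-21205234). In Runx1, a pair of intronic regions (chr16:92793221-92794026 and chr16:92795103-92795835) had 3.54, 2.77 and 3.76, and 2.76, 2.12 and 3.75. Both were weaker in all 3 lists than the distal region upstream of the gene, and by their lowest value they ranked 436 and 496 of the 502.
Mpo encodes myeloperoxidase, a granule enzyme of the neutrophil lineage, and the region 2302 bp upstream of it (chr11:87790283-87791279) had 3.65, 3.74 and 3.33. H3K4me1 covered it in all lists but wildtype, with 7.74, 4.79 and 6.53 with Flt3-ITD, 6.21 in NUP98-HOXD13 and 5.63 in Runx1-het. Dusp5 had 5.01, 3.22 and 2.44, and Ifngr1 2.82, 3.26 and 2.44. H3K4me1 was present at 1 of the 14 in wildtype (Cdk6), and at 9, 11 and 10 in the lists with Flt3-ITD. It was at 11 in NUP98-HOXD13 and 9 in Runx1-het. Over all 502 members the shares were 48.8% in wildtype and 70.9, 70.7 and 74.3% with Flt3-ITD. They were 64.9% in NUP98-HOXD13 and 52.8% in Runx1-het, and all merged regions had 39.4% in wildtype. The 14 are few, were picked by gene lists, and their difference from the other members was not tested.

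Position was not used by the choice of regions. Promoters made up 66 of 502 (13.1%, 95% Wilson interval 10.5 to 16.4), introns 271 (54.0%), intergenic sequence 151 (30.1%) and exons 14 (2.79%). Among all merged regions promoters were 16.1%, among 4104 regions held by 3 lists in other combinations 12.6%, and among 13816 held by all 6 lists 51.1%. The members thus had about the promoter share of other regions found in 3 lists, and far fewer promoters than the regions shared by all genotypes. The median distance to a start site was 18.7 kb, and 48 members lay more than 100 kb away, the farthest at 1020 kb. The intervals cover counting error over regions only, not variation between animals.

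**Figure D2:**
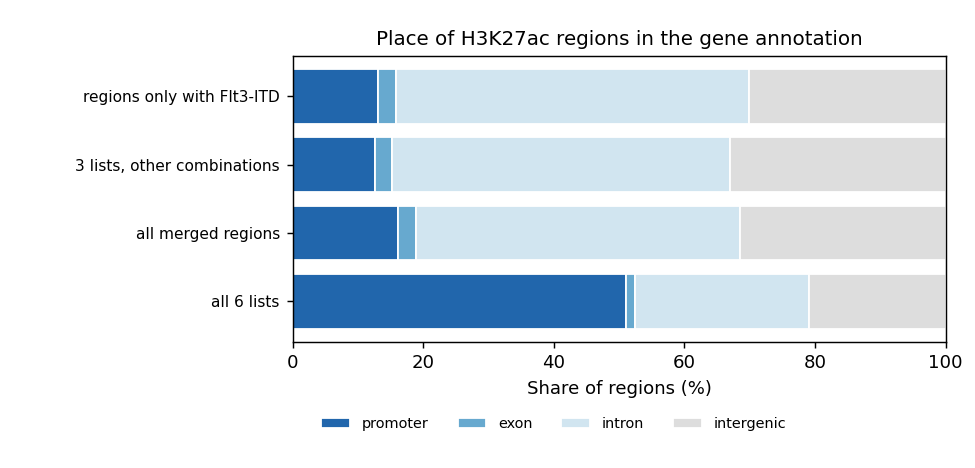
Share of regions (horizontal axis, %) at promoters, exons, introns and intergenic sequence for the regions held only with Flt3-ITD, those held by 3 lists in other combinations, all merged regions and those held by all 6 lists. Promoters are 13.1% of the first bar and 51.1% of the last.

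The members were 395 to 2922 bp wide, with a median of 929 bp, against 836 bp for regions in 3 lists of other combinations, 519 bp for all merged regions and 2420 bp for those in all 6 lists. Most were a single peak in each list, 480, 472 and 446 of 502 in the 3 lists with Flt3-ITD. The summits of the 3 lists lay within 300 bp of each other in 242 members (48.2%, regions in all 6 lists 55.1%), and within 100 bp in 57 (11.4%, against 22.2%). A further merged region with a peak in a list without Flt3-ITD lay within 1 kb of 234 members (46.6%, all merged regions 37.8%, other regions in 3 lists 50.1%). Close to acetylated sequence of the genotypes without Flt3-ITD, the members thus lay about as often as other regions in 3 lists.

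H3K4me1 was measured in other samples of the same genotypes and took no part in the choice. It covered 356 members (70.9%, 66.8 to 74.7) in the Flt3-ITD list and 245 (48.8%, 44.5 to 53.2) in wildtype, where all merged regions gave 50.8% and 39.4%. The Flt3-ITD/Runx1-het list covered 373 (74.3%, 70.3 to 77.9) and Runx1-het 265 (52.8%, 48.4 to 57.1), against 49.5% and 41.1% of all merged regions. In Flt3-ITD/NUP98-HOXD13 and NUP98-HOXD13 it covered 355 (70.7%, 66.6 to 74.5) and 326 (64.9%, 60.7 to 69.0), against 51.7% and 47.3%. With these full lists, coverage at the members exceeded that of all merged regions in each of the 6. With H3K4me1 peaks of a −log10 q of at least 5 alone, NUP98-HOXD13 covered a smaller share of the members than of all merged regions. The members were also wider than all merged regions (medians 929 and 519 bp), and width was not adjusted for. In the full lists the other regions held by 3 lists had 66.9, 67.7 and 66.3% with Flt3-ITD and 51.3, 64.9 and 53.4% in the counterparts. Of these only the 66.3% of Flt3-ITD/Runx1-het lay outside the interval of the members.

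**Figure D3:**
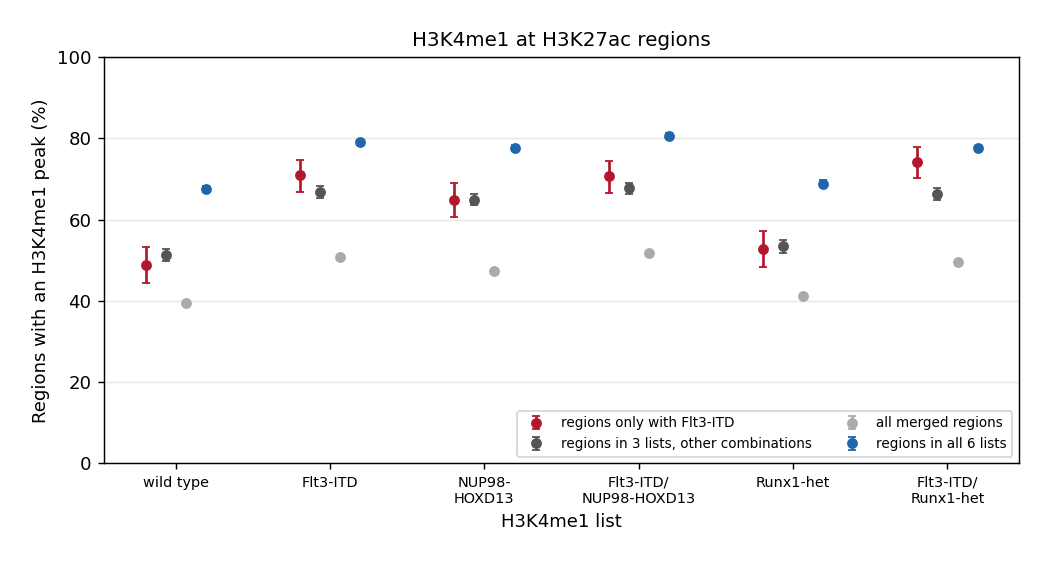
Share of H3K27ac regions with an H3K4me1 peak (vertical axis, %, with 95% Wilson intervals) in each of the 6 H3K4me1 lists, for 4 sets of regions. The regions held only with Flt3-ITD run from 48.8% in wild type to 74.3% in Flt3-ITD/Runx1-het, and lie above all merged regions in every full list.

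Most members had H3K4me1 in some genotype that lacked the H3K27ac peak, and so did most other regions in 3 lists. In at least 1 list without Flt3-ITD it covered 389 members (77.5%, all merged regions 62.0%, other regions in 3 lists 79.2%), and in all 3 of them 158 (31.5%, against 24.0% and 32.7%). It was found in all 6 lists at 133 members (26.5%), where other regions in 3 lists had 26.9% and all merged regions 20%. It was in 5 lists at 116 members (23.1%, against 18.5% and 11.9%), in 4 at 69, in 3 at 47, in 2 at 43 and in 1 at 39. At 55 members (11%) no list had it, against 11.7% of other regions in 3 lists and 27.1% of all merged regions. Its pattern equalled that of H3K27ac, all 3 lists with Flt3-ITD and none without, at 11 members (2.19%, 1.23 to 3.88), against 0.943% of all merged regions and 1.10% of other regions in 3 lists.
The strongest of the 11 lay in an intron of Ksr1, which encodes a scaffold of the MAPK cascade (chr11:79044273-79045837). Its H3K27ac fold enrichments were 4.21, 4.83 and 4.59, and those of H3K4me1 3.34, 4.33 and 5.87, in the 3 lists with Flt3-ITD. Next came the Rack1 promoter (chr11:48798439-48799390) with 5.25, 3.65 and 5.66 for H3K27ac and 3.68, 4.43 and 5.14 for H3K4me1. Pecam1, an adhesion molecule of endothelial and haematopoietic cells, Akap7 and Cradd followed.
Among members with H3K4me1 in all 6 lists the strongest, after the distal Runx1 region, lay in an intron of Lrrc36 near Tppp3 (5.65, 5.35 and 7.27), in Zfp516 (5.49, 5.32 and 7.24), in Matn2 (7.48, 4.33 and 5.66) and near Plac8 (4.90, 4.31 and 4.24). The strongest without any H3K4me1 peak were those near Kdr and Guca1a, the Sh2b2 and Mettl17 promoters and a region near Gm15319.

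Within a pair of lists that differ by Flt3-ITD, H3K4me1 can be gained or lost at a member. Between Flt3-ITD and wildtype, 132 members (26.3%) had it only with Flt3-ITD and 21 (4.18%) only in wildtype, a ratio of 6.29, while all merged regions gave 18% and 6.68%, a ratio of 2.70. Between Flt3-ITD/Runx1-het and Runx1-het the counts were 140 (27.9%) and 32 (6.37%), a ratio of 4.38, against 18.1% and 9.64%, a ratio of 1.88. Between Flt3-ITD/NUP98-HOXD13 and NUP98-HOXD13 they were 73 (14.5%) and 44 (8.76%), a ratio of 1.66, against 12.2% and 7.86%, a ratio of 1.55. Other regions held by 3 lists had ratios of 3.38, 2.30 and 1.28 for the pairs with wildtype, Runx1-het and NUP98-HOXD13. H3K4me1 therefore leaned towards the list with Flt3-ITD at the members more than at either set in the wildtype and Runx1-het backgrounds. In the NUP98-HOXD13 background it leaned by nearly the same amount as at all merged regions, and somewhat more than at other regions in 3 lists. The difference between backgrounds was not tested. The order of the backgrounds turned with H3K4me1 peaks of a −log10 q of at least 5 alone, where the ratios at the members were 1.89 for wildtype, 1.54 for Runx1-het and 8.07 for NUP98-HOXD13, against 1.26, 0.711 and 6.73 over all merged regions.
The H3K4me1 lists with Flt3-ITD were longer in 2 of the pairs, with 94579 peaks against 73503 and 117034 against 72676, and similar in the NUP98-HOXD13 pair (95906 and 95248). With all lists shortened to their 72676 strongest peaks the ratios at the members were 3.14, 2.11 and 1.69 for the pairs with wildtype, Runx1-het and NUP98-HOXD13, beside 1.66, 0.906 and 1.45 over all merged regions. At other regions in 3 lists they were then 1.94, 1.10 and 1.30.

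**Figure D4:**
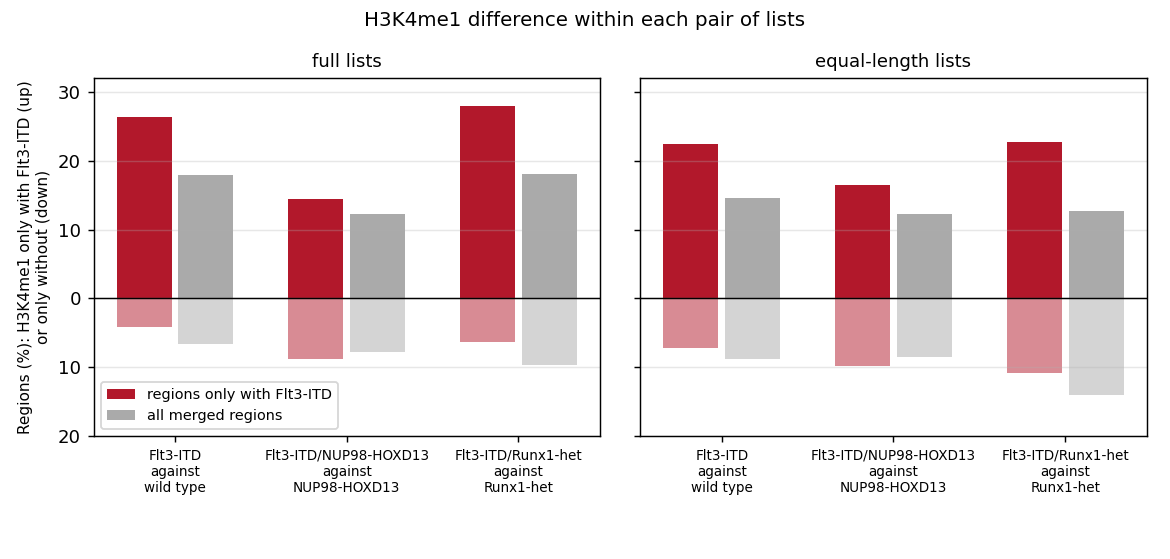
Share of regions (vertical axis, %) with H3K4me1 only in the list with Flt3-ITD (upwards) or only in its counterpart without (downwards), for the members and for all merged regions, with full lists and with lists of equal length. In full lists the upward bars of the members are 26.3, 14.5 and 27.9%, and the downward bars 4.18, 8.76 and 6.37%.

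Where H3K4me1 peaks covered a member, their median fold enrichment was 4.83, 4.48 and 5.17 with Flt3-ITD and 4.76, 4.55 and 4.67 in their counterparts. All 6 were above the medians of their lists, which ran from 3.96 to 4.45. These medians cover different members in each list and only peaks that passed its threshold, so they were not compared between lists.

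The members were spread over all chromosomes analysed, from 0.418% of the merged regions of chromosome 1 to 1.06% of those of chromosome 15, with 5 of 819 (0.611%) on X. Peaks on chromosome Y numbered 5 in each Runx1-het list and 0 or 1 in the other 4 H3K27ac lists, and each side of the rule holds 1 such list. The labels used here do not give the sex of the animals, and its part in the regions was not tested.

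Membership depended on the peak threshold. With peaks of a −log10 q of at least 5 alone in all lists 367 regions met the rule, of which 31 were among the 502, so the rule then chose mostly other regions, many of them promoters (39.2%). With lists of equal length 403 regions met it, including 285 (56.8%) of the 502. Across 9 settings 15 of the 502 regions and 10 of the 20 strongest were members every time. The rest of the 20 were those near Runx1, Zfp516, Gcn1, Max, Guca1a, Cradd, Anp32e, Tmem140, Slc25a31 and Sh2b2. The distal Runx1 region was no longer a member when peaks up to 1 kb apart were merged. The settings that dropped a pair of lists could remove no member, and the one limited to autosomes kept 497. Filters on −log10 q favour strong peaks by design, so these counts do not measure how stable the members are.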

How the data were processed

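H3K27ac and H3K4me1 were measured in 39 samples in 12 groups, assigned from the source names and genotype labels. Alignment with BWA to mm10 (GRCm38) and peak calling with MACS2 are named per the submitters' processing notes. Their versions, the peak threshold and the read depths stand in no source used here. The 12 deposited lists, 1 per group and pooled over its samples, give per peak a score of at most 1000, a ratio (the authors' fold enrichment), the deposited −log10 p and −log10 q, and a summit position. Fold enrichment ranks and describes peaks within a list, −log10 p shortens lists, and −log10 q filters them.

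Python 3.11.15, numpy 2.4.6 and pandas 2.3.3 were used. A list held a region where a peak of it overlapped by 1 bp. Genes came from the basic set of GENCODE mouse release 21 (21728 protein-coding genes, 41219 start sites): the nearest start site within 50 kb for counts per gene or list, at any distance for naming a region. Shares carry 95% Wilson intervals. The procedure was tested on simulated data made of copies of the wild-type list. Of 300 planted regions 300 were recovered, 6 others met the rule, and 6 met it with nothing planted. The copies share 1 source, whereas the real lists differ in length and fold enrichment. These counts therefore check the procedure only and give no error rate for the members.

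The members and gene lists were chosen with earlier results of these data known. Named regions are the 20 strongest and 5 weakest members by their lowest fold enrichment, the 5 strongest promoters, members near listed genes, genes with at least 3 members, and the 5 strongest members with H3K4me1 in the same pattern or in all 6 lists. Members without H3K4me1, the groups on chromosomes 10 and 17 and regions just outside were added after their values were seen. A few regions that these rules name are not reported here. Motifs were planned for 300 bases around the summit, which needs a genome, and were searched in RefSeq promoter windows instead.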

Additional observations from a re-analysis of the deposited data

How the results depend on the processing

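Of the values recomputed under each alternative, 64 moved little and 57 moved beyond their interval or by more than 1.5 times, and no p-value was involved. The number of regions was 31 with a −log10 q of at least 5 in the lists with Flt3-ITD only, 308 with peaks up to 1 kb apart merged, 863 where peaks had to cover at least 0.5 of a region, and 1550, 2556 and 1778 without the Runx1-het pair, the NUP98-HOXD13 pair and the Flt3-ITD and wildtype lists, which drop conditions of the rule. The promoter share was 39.2% where every list was filtered at a −log10 q of 5, 22.6% with it in the lists with Flt3-ITD only, 17.9% with lists of equal length, 27.8% with coverage of 0.5, 18.1% with promoters within 2 kb, and 19.6% and 8.26% without the NUP98-HOXD13 or Runx1-het pair. Members near STAT5 targets numbered 1 of 502 in the main setting, and 2 of 367 and 0 of 31 under these −log10 q filters. They were 6 of 863 with coverage of 0.5, 0 of 308 with merging up to 1 kb, and 3 of 502 within 100 kb. Without the Runx1-het pair, the NUP98-HOXD13 pair and the Flt3-ITD and wildtype lists they were 6 of 1550, 11 of 2556 and 6 of 1778. The sets differ in size, and no share over all regions is set beside these counts. The STAT core was in 0% of 9 windows with −log10 q of at least 5 in the lists with Flt3-ITD only.

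The H3K4me1 share fell with stricter H3K4me1 peaks. In the order wildtype, Flt3-ITD, NUP98-HOXD13, its double mutant, Runx1-het and its double mutant it was 24.7, 32.7, 6.77, 26.5, 23.3 and 29.9% with −log10 q of at least 5, and 29.9, 50.6, 45.6, 52.8, 33.9 and 44.2% for a peak over the H3K27ac summit, chosen after seeing the data. With that −log10 q, NUP98-HOXD13 peaks lay at 2.79% of members without its double mutant and at 3.98% together with it. Over all merged regions these shares were 2.16% and 5.91%, so NUP98-HOXD13 then covered less of the members than of all merged regions. Equal-length H3K4me1 lists gave 63.9, 56.4, 63.1 and 64.7% in Flt3-ITD, NUP98-HOXD13 and both double mutants. Filtering every H3K27ac list at a −log10 q of 5 it was 64.0, 67.8 and 44.4% in Flt3-ITD, Flt3-ITD/Runx1-het and Runx1-het, and with that filter in the lists with Flt3-ITD only 41.9, 64.5 and 29.0% in wildtype, Flt3-ITD/NUP98-HOXD13 and Runx1-het. Coverage of 0.5 gave 55.6% in wildtype. Without the NUP98-HOXD13 pair it was 42.9, 63.3, 60.0, 62.1, 44.5 and 66.7% in the 6 lists, without the Runx1-het pair 54.5, 59.2 and 67.9% in wildtype, Runx1-het and Flt3-ITD/Runx1-het, and without the Flt3-ITD and wildtype lists 65.1 and 68.3% in Flt3-ITD and Flt3-ITD/Runx1-het. Except where fewer lists enter the rule, the cause was not tested. For an H3K4me1 peak over the summit, the ratio of members with H3K4me1 only with Flt3-ITD to only without was 5.16, 1.64 and 1.81 for the pairs with wildtype, NUP98-HOXD13 and Runx1-het, against 2.60, 1.71 and 1.20 over all merged regions, so in the NUP98-HOXD13 pair the members no longer stood above all merged regions.

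No paired analysis was possible because the lists are pooled over the samples of a group. Leaving out a replicate was not run, for want of values per sample. The motif alternatives over whole regions or 100 bases around the summit were not run, since no genome sequence was used here.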
